A study of Rattus norvegicus with 9 samples.

Results

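The vascular endothelial growth factor (VEGF) family was described here through 8 genes chosen by symbol from the 37203 gene symbols of a count table of the rat superior mesenteric artery (SMA), the vessel that feeds most of the small intestine. They are the ligand genes Vegfa, Vegfb, Vegfc and Pgf, the receptor kinase genes Flt1 (VEGFR1) and Kdr (VEGFR2), and the neuropilin genes Nrp1 and Nrp2. The 9 libraries came from 3 groups of 3 Sprague-Dawley (SD) rats, all 8 weeks old and weighing 220-240 g. They were normal controls, rats at 1 h of ischemia and rats at 4 h of ischemia. Ischemia was brought about by hemorrhage, blood being drawn from a femoral artery, so the whole animal and not one vessel was deprived of blood. The labels name no genetic change, drug treatment or resuscitation that separates the groups. Rats of the ischemia model were anaesthetized with sodium pentobarbital and catheterized, and the study describes no sham operation for normal rats. Anesthesia and surgery may therefore also differ between the groups and cannot be told apart from blood loss. The whole dissected artery was sequenced, so a lower value cannot be told apart as fewer cells of a type or less RNA per cell.

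VEGF-A is the main signal by which tissue short of oxygen calls for blood vessels, and it acts on the endothelium through the tyrosine kinase Kdr. Flt1 binds VEGF-A more tightly than Kdr but signals weakly, so it works largely as a decoy, and it is also the receptor of VEGF-B and placental growth factor (the product of Pgf). VEGF-C acts mainly on lymphatic vessels through Flt4 (VEGFR3), and the neuropilins are co-receptors without a kinase of their own that are shared with the class 3 semaphorins, guidance signals of nerves and vessels.

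Values are CPM, which are counts scaled by library size, with the TMM method used to adjust the sizes, and 1 CPM stood for 12.1 to 17.9 counts. A gene was called in a comparison when its fold change exceeded 1.5 and its adjusted p from edgeR's quasi-likelihood test was under 0.05. All 8 genes had enough counts to be tested, among 15482 in all. At 1 h of ischemia 0 of the 8 were called, against 0.0581% of all genes tested, and at 4 h again 0 of 8, against 0.0904%. At an unadjusted p under 0.05 there were 2 of 8 at 1 h, against 16.7% of all genes, and 2 of 8 at 4 h, against 12.4%. Over the 3 groups together 0 of 8 were called, against 0.0388%. In both comparisons with normal the members under the unadjusted threshold were Vegfa, with higher values, and Vegfc, with lower values. Of all genes 7.98% had such a p with higher values and 8.67% with lower values at 1 h, and 5.07% and 7.35% at 4 h. DESeq2 called 610 of the 15482 genes at 4 h, against 14 by edgeR. It called 1 of the 8, Vegfa at 4 h, with an adjusted p of 0.00031. Both comparisons share the 3 normal libraries, so their values are not independent of each other.

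**Figure D1:**
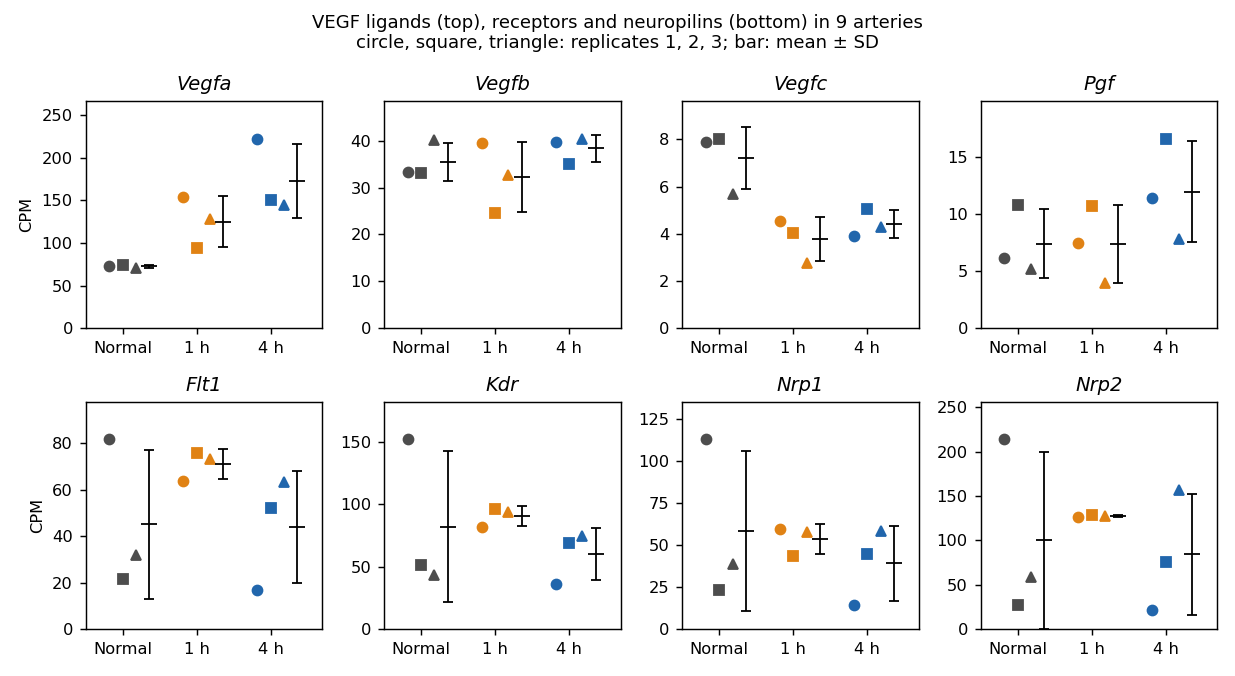
Level of each of the 8 genes in CPM (vertical axes, each from 0) in the 9 arteries, by group (horizontal axes). Symbols mark replicates and bars give the mean ± SD of 3 libraries. Vegfa lay between 70.5 and 74.2 CPM in the normal arteries and above 93 CPM in all 6 ischemic ones, whereas the receptor and neuropilin genes in the lower row spread widely within the normal and the 4 h groups.

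Vegfa had 73.5, 74.2 and 70.5 CPM in the normal arteries, 153.7, 93.6 and 128.2 CPM at 1 h and 222.7, 150.2 and 144.7 CPM at 4 h. The normal arteries were close together and all 6 ischemic arteries lay above them, while the 1 h and 4 h arteries overlapped. The mean went from 72.7 ± 1.997 CPM to 125.2 ± 30.2 CPM at 1 h and 172.5 ± 43.5 CPM at 4 h (SD, n = 3 each), which is 1.72-fold and 2.37-fold the normal level. The log2 difference from normal was 0.78 at 1 h (SE 0.24, 95% interval 0.23 to 1.34, adjusted p = 0.232) and 1.25 at 4 h (SE 0.24, 95% interval 0.69 to 1.80, adjusted p = 0.0979). By p-value Vegfa stood at place 750 of 15482 genes at 1 h and at place 129 at 4 h. Vegfa and Vegfc were the 2 of the 8 genes whose ischemic and normal groups did not overlap, against 26.3% of all genes at 1 h and 18.7% at 4 h. Such groups with the ischemic one higher were found for 12.8% of all genes at 1 h and 7.93% at 4 h. The difference between 4 h and 1 h was 0.46 on the log2 scale with a 95% interval of -0.088 to 1.01 (adjusted p = 0.856), so the order of the 2 ischemic groups was not resolved. Over the 9 fits that each left out 1 library, the log2 difference of Vegfa ran from 0.61 to 0.95 at 1 h and from 1.00 to 1.36 at 4 h, and the unadjusted p was under 0.05 in all 9 fits at both times. The adjusted p at 4 h was between 0.103 and 0.29 in those fits.

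Vegfb, the ligand of Flt1 best known from heart and muscle, was the steadiest of the 8 genes. It had 33.3, 33.1 and 40.2 CPM in the normal arteries, 39.5, 24.6 and 32.8 CPM at 1 h and 39.7, 35.1 and 40.5 CPM at 4 h. The 3 groups overlapped, and the lowest artery was replicate 2 at 1 h. The log2 difference was -0.14 at 1 h (95% interval -0.60 to 0.33) and 0.11 at 4 h (95% interval -0.35 to 0.58). The intervals on the fold scale therefore ended at 0.658 and 1.25 at 1 h and at 0.783 and 1.49 at 4 h. The SD of its log2 CPM over the 9 libraries was 0.23, against a median of 0.49 over all genes tested.

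Vegfc had 7.89, 8.03 and 5.69 CPM in the normal arteries, 4.55, 4.01 and 2.76 CPM at 1 h and 3.89, 5.06 and 4.29 CPM at 4 h. All 6 ischemic arteries lay below the 3 normal ones. The mean was 7.20 ± 1.31 CPM in normal arteries, 3.77 ± 0.915 CPM at 1 h and 4.41 ± 0.595 CPM at 4 h (SD, n = 3 each). The log2 difference was -0.93 at 1 h (SE 0.30, 95% interval -1.61 to -0.25, adjusted p = 0.237) and -0.71 at 4 h (SE 0.30, 95% interval -1.38 to -0.030, adjusted p = 0.383). Neither passed the adjusted threshold, and groups that did not overlap, with the ischemic one lower, were found for 13.5% of all genes at 1 h and 10.8% at 4 h. The 4 h and 1 h arteries overlapped and differed by 0.22 (95% interval -0.45 to 0.90).

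Pgf, the gene of placental growth factor, had 6.16, 10.8 and 5.17 CPM in the normal arteries, 7.43, 10.7 and 3.93 CPM at 1 h and 11.4, 16.6 and 7.79 CPM at 4 h. The groups overlapped, and replicate 3 was the lowest library of each group. The log2 difference was -0.0051 at 1 h (95% interval -1.06 to 1.05) and 0.69 at 4 h (95% interval -0.37 to 1.75, adjusted p = 0.569). The 1 h and 4 h arteries also overlapped, with a log2 difference of 0.70 (95% interval -0.36 to 1.75).

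The stretches of 250 bases upstream of the first annotated start of Vegfa and the annotated start of Vegfc are shown because these are the 2 members with an unadjusted p under 0.05. They were read from RefSeq for the assembly GRCr8, where all 8 genes had an entry. Vegfa has a second annotated start there, whose stretch overlaps the annotated gene, is not printed and holds 0 of the hexamers described next (GC content 56%). Both are written 5′ to 3′ on the strand of the gene, with each GGGCGG in capitals, or CCGCCC where it lies on the opposite strand. GGGCGG is the core of the GC box bound by Sp1 and related factors. The Vegfa stretch lies on the plus strand at chr9:22452604-22452853 and the Vegfc stretch on the minus strand at chr16:44560888-44561137.
Vegfa: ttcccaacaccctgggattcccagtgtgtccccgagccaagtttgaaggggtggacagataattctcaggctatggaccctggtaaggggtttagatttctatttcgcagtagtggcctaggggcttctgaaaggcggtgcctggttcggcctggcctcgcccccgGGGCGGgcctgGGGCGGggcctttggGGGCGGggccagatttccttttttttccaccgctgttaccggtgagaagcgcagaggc
Vegfc: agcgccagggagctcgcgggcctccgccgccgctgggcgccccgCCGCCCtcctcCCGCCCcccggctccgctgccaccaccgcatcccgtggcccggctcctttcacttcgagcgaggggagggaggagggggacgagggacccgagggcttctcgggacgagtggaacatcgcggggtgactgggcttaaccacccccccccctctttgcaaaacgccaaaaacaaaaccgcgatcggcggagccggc
The Vegfa stretch held 3 such hexamers and the Vegfc stretch 2, and 30.5% of 33469 promoter stretches of the same length held at least 1 on either strand. The stretches of Vegfb, Flt1, Pgf and Kdr, not printed, held 4, 3, 2 and 1, and those of Nrp1 and Nrp2 held 0. Those of Vegfb, Flt1, Kdr and Nrp2 overlap the annotated gene. The GC content of the Vegfa and Vegfc stretches was 60.4% and 72.4%, against a median of 51.2%. ACGTG, the core of the hypoxia response element, was found on neither strand of the stretches of any of the 8 genes and in 16.6% of all stretches, which says only that these letters are absent from these windows.

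Flt1 had 81.6, 21.6 and 31.8 CPM in the normal arteries, 63.8, 76.0 and 73.4 CPM at 1 h and 16.9, 51.9 and 63.2 CPM at 4 h. One normal artery, replicate 1, stood above all 1 h arteries and the other normal arteries below them. The log2 difference was 0.66 at 1 h (SE 0.57, 95% interval -0.65 to 1.96, adjusted p = 0.538) and -0.034 at 4 h (SE 0.57, 95% interval -1.34 to 1.27, adjusted p = 0.989). Kdr, the main signalling receptor, had 151.8, 51.5 and 42.8 CPM in the normal arteries, 81.5, 95.7 and 93.9 CPM at 1 h and 35.8, 69.0 and 74.4 CPM at 4 h. Normal replicate 1 was again the highest library and replicate 1 at 4 h the lowest. Its log2 difference was 0.14 at 1 h (SE 0.48, 95% interval -0.97 to 1.25, adjusted p = 0.892) and -0.46 at 4 h (SE 0.48, 95% interval -1.57 to 0.65, adjusted p = 0.713).

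Between 4 h and 1 h, Flt1 and Kdr were the only ones of the 8 genes whose groups did not overlap, and both had lower values at 4 h. The log2 difference was -0.69 for Flt1 (95% interval -1.998 to 0.62) and -0.60 for Kdr (95% interval -1.71 to 0.51), each with an adjusted p of 0.856. No gene of the table was called in that comparison by edgeR or DESeq2. An unadjusted p under 0.05 was found for 2.58% of all genes and for 0 of the 8, and groups without overlap for 6.24% of all genes, 3.2% with higher and 3.04% with lower values at 4 h.

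The ratio of Flt1 to Kdr counts within a library compares decoy with signalling receptor free of the scaling between libraries. It was 0.538, 0.419 and 0.743 in the normal arteries, 0.783, 0.794 and 0.781 at 1 h and 0.471, 0.752 and 0.849 at 4 h. The 1 h arteries were tightly grouped and all above the normal ones, and the 4 h arteries overlapped both other groups. The difference of mean log2 ratio from normal was 0.51 at 1 h (exact permutation test, two-sided, p = 0.1, the smallest that 3 against 3 libraries can give) and 0.28 at 4 h (exact permutation test, two-sided, p = 0.4). The counts are not corrected for gene length, so the ratio compares libraries and does not say which receptor was the more abundant.

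Nrp1, a co-receptor of VEGF-A in arterial endothelium, had 112.8, 23.1 and 38.9 CPM in the normal arteries, 59.5, 43.3 and 58.0 CPM at 1 h and 14.3, 44.7 and 58.2 CPM at 4 h. Normal replicate 1 was far above the next highest library, and all groups overlapped. The log2 difference was -0.12 at 1 h (95% interval -1.58 to 1.33, adjusted p = 0.932) and -0.58 at 4 h (95% interval -2.04 to 0.88, adjusted p = 0.73). Nrp2, better known from veins, lymphatic vessels and nerves, had 213.7, 27.5 and 58.2 CPM in the normal arteries, 126.6, 128.5 and 127.0 CPM at 1 h and 20.8, 75.0 and 156.6 CPM at 4 h. It spanned 10.3-fold over the 9 arteries, the widest range of the 8 genes, yet the 1 h arteries had an SD of 1.02 CPM. Its log2 difference was 0.35 at 1 h (95% interval -1.52 to 2.22, adjusted p = 0.835) and -0.25 at 4 h (95% interval -2.12 to 1.63, adjusted p = 0.927). The upper end of the interval at 1 h corresponds to 4.68-fold, so the data do not show that the neuropilin genes were steady.

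**Figure D2:**
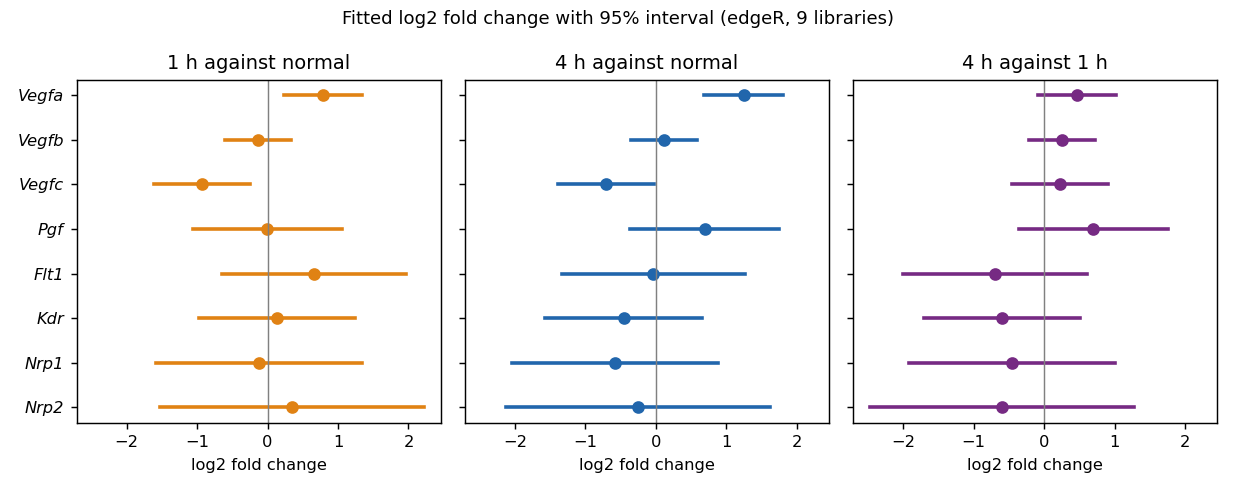
Fitted log2 fold change (horizontal axis) of each of the 8 genes (vertical axis) in the 3 comparisons, with its 95% interval as a line. The intervals of Vegfa lie above 0 and those of Vegfc below 0 at 1 h and at 4 h, before adjustment for the number of genes, and the intervals of Pgf, Flt1, Kdr, Nrp1 and Nrp2 are wider and include 0.

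The receptor and neuropilin genes varied together from artery to artery. Each gene's log2 CPM was centred on its own mean over the 9 libraries, and the distance of a pair of genes was the root mean square difference of these profiles. The 6 pairs among Flt1, Kdr, Nrp1 and Nrp2 had distances of 0.35 to 0.61, with a median of 0.37. The 6 ligand pairs had 0.49 to 0.91, and the 16 pairs of a ligand with a receptor or neuropilin gene had 0.74 to 1.44. Flt1 with Nrp1 was the closest pair (0.35) and Pgf with Nrp2 the farthest (1.44). All 4 receptor and neuropilin genes were highest in normal replicate 1 and lowest in replicate 1 at 4 h, which was the library highest in Vegfa. The points of a profile share their library, so shared cell makeup and depth enter every distance. A distance also grows with the spread of the genes compared. The median distance to 10436 genes with a mean of at least 5 CPM was 0.90 for Flt1, 0.74 for Kdr, 0.91 for Nrp1 and 1.17 for Nrp2.

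Markers of vessel cell types also differed between these arteries. Smooth muscle markers such as Myh11 and Acta2 were abundant in every library and endothelial markers were present, as the labelled tissue calls for. The mean log2 CPM of 15 endothelial markers was highest in normal replicate 1 (7.01) and lowest in replicate 1 at 4 h (5.74), the same libraries that were the extremes for the receptor genes. The mean of 7 macrophage markers had the same extremes (3.82 and 1.77). By root mean square distance of centred profiles, macrophage markers lay nearer than endothelial markers to Flt1 (0.52 against 0.70), Nrp1 (0.43 against 0.68) and Nrp2 (0.69 against 0.97), and endothelial markers lay nearer to Kdr (0.44 against 0.47). Schwann cell markers, whose means follow, lay nearer to Nrp2 (0.60) than both. They lay at 0.56 from Flt1, 0.68 from Nrp1 and 0.71 from Kdr. Of the ligand genes, Vegfc lay at 0.41 from the endothelial markers, Vegfb at 0.54, Pgf at 0.70 and Vegfa at 0.85. Nearness to these markers was therefore not particular to the receptor and neuropilin genes. Normal replicate 2 had the third highest endothelial mean (6.55) while its Flt1, Nrp1 and Nrp2 values were each the second lowest. The mean of 9 Schwann cell markers, the glia of peripheral nerve, was highest in normal replicate 1 (7.26) and lowest in normal replicate 2 (3.50), with 4.92 in replicate 1 at 4 h. The mean of 9 smooth muscle markers ran the other way, from 8.86 in normal replicate 1 to 11.5 in replicate 1 at 4 h. The mean of 16 sympathetic neuron markers was near 8.5 in replicates 1 and 3 at 1 h and replicate 3 at 4 h, between 4.22 and 5.40 in normal replicates 1 and 3 and replicate 2 at 1 h, and between -0.60 and 0.42 in the other 3 arteries. Between groups, the summed endothelial CPM ran from 1225 to 2249 in normal arteries, 990.3 to 1737 at 1 h and 1058 to 1474 at 4 h. Of the 15 endothelial markers tested, 0 were called at either time, and Erg, Egfl7 and Tie1 had an unadjusted p under 0.05 with lower values at both times, against 8.67% of all genes at 1 h and 7.35% at 4 h. The median log2 difference of the 15 was -0.42 at 1 h and -0.52 at 4 h, and single markers such as Cldn5 at 4 h (1.22-fold the normal mean) had higher values. With the endothelial mean as a covariate, the log2 difference at 1 h was 1.23 for Flt1 and 0.79 for Kdr, with unadjusted p-values of 0.0388 and 0.0485 and adjusted p-values of 0.281 and 0.301. That of Vegfa was then 0.60 at 1 h and 1.02 at 4 h, with an adjusted p of 0.196 at 4 h. At 1 h, 14 of the 16 sympathetic neuron markers had all ischemic arteries above the normal ones, against 12.8% of all genes, although 0 of the 16 had an unadjusted p under 0.05. With the mean of the neuron and Schwann cell markers as a covariate the log2 difference of Vegfa was 0.88 at 1 h and 1.25 at 4 h (adjusted p = 0.439 and 0.0718). The part of cell makeup in the values of the 8 genes was otherwise not tested.

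**Figure D3:**
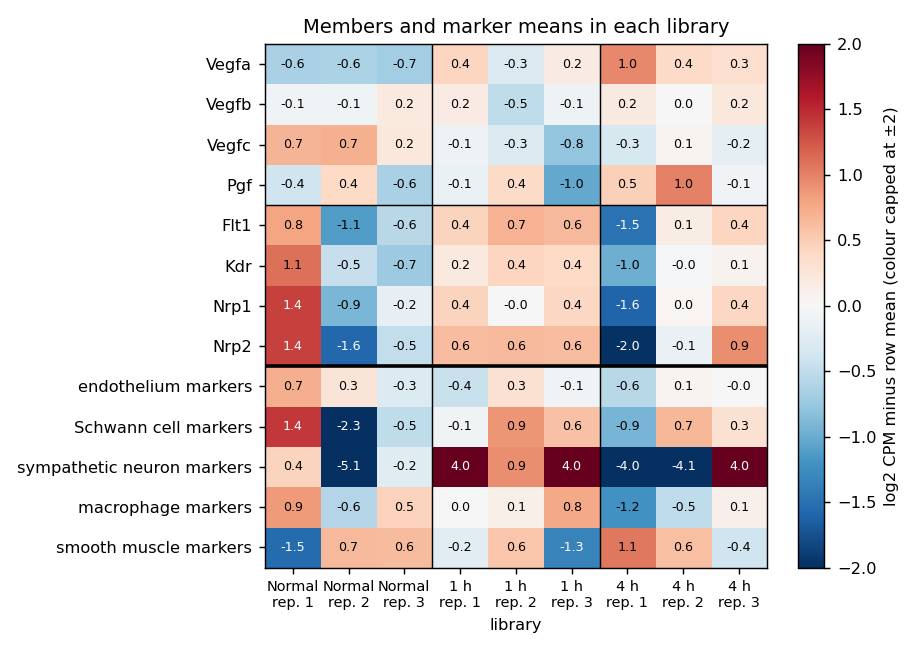
Log2 CPM of the 8 genes and mean log2 CPM of 5 sets of marker genes (rows), each minus its own mean over the 9 libraries (columns), as colour and as a number. The receptor and neuropilin rows share their highest library (normal replicate 1) and their lowest (replicate 1 at 4 h) with the endothelial and macrophage markers, and the smooth muscle row is lowest in the first and highest in the second.

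Normal replicate 1 was among the libraries whose omission changed the direction of receptor or neuropilin values. Without it the log2 difference at 1 h was 1.41 for Flt1, 0.94 for Kdr, 0.79 for Nrp1 and 1.57 for Nrp2, with unadjusted p-values of 0.0282 for Flt1 and 0.0207 for Kdr and an adjusted p of 0.282 for both. At 4 h it was 0.72, 0.34, 0.33 and 0.97 in the same order, where the fit of all 9 libraries gave values below 0 for each. At 1 h only Nrp1 changed sign in this fit. Other omissions also reversed signs at 1 h. Kdr fell to -0.087 when normal replicate 2 was dropped and to -0.17 when normal replicate 3 was. Nrp2 fell to -0.074 in the former case, and Nrp1 rose to 0.011 when replicate 2 at 1 h was dropped. Dropping replicate 1 at 4 h gave 0.33 for Flt1 and 0.20 for Nrp2 at 4 h, while Kdr and Nrp1 stayed below 0. None of the 8 genes was called at any time in a fit that left out 1 library. For Vegfa and Vegfc the omission of normal replicate 1 left the differences at 0.79 and -0.86 at 1 h and 1.25 and -0.64 at 4 h. The unadjusted edgeR p of Vegfc at 4 h was then 0.104. It was under 0.05 in 3 of the 9 fits that left out 1 library at 4 h, and in all 9 at 1 h.

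**Figure D4:**
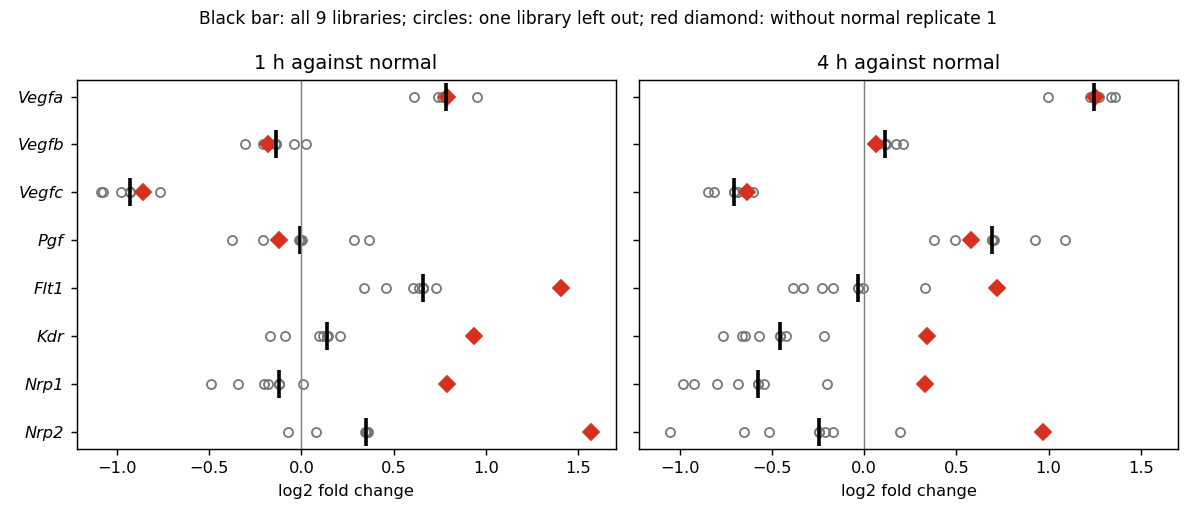
Log2 fold change (horizontal axes) of the 8 genes (vertical axis) at 1 h and 4 h against normal in the fit of all 9 libraries (black bars) and in the 9 fits that each left out 1 library (circles, with a red diamond where normal replicate 1 was left out). For Flt1, Kdr, Nrp1 and Nrp2 the diamond lies to the right of all other points, and for Vegfa it lies beside the bar.

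For each of the 8 genes the genes of most similar profile over the 9 libraries were sought among 10436 genes with a mean of at least 5 CPM, by the same root mean square distance. They were Fem1b, Ykt6 and Larp7 for Vegfa (0.22 to 0.24, against a median of 0.69 over the candidates), Zfp449, Btbd6 and Chmp7 for Vegfb, Xpc, Zbtb1 and Dyrk1b for Vegfc, and Tp53bp2, Daam2 and Pear1 for Pgf. Celsr2 and Kitlg were among the 3 nearest to both Flt1 and Nrp2, with Sfrp1 for Flt1 (0.18) and Tbc1d30 for Nrp2 (0.22). Dip2b, Clic5 and Npr2 were nearest to Kdr, and Mgat3, Ablim3 and Mpzl1 to Nrp1.

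The remaining genes of the family were Flt4, the receptor of VEGF-C, and Figf, the older symbol of Vegfd, whose product is another ligand of Flt4. Flt4 had a mean of 27.6 ± 8.44 CPM in normal arteries, 23.4 ± 8.33 CPM at 1 h and 25.0 ± 4.63 CPM at 4 h (SD, n = 3 each), with all groups overlapping. Figf had 2.24, 2.34 and 2.95 CPM in the normal arteries, 0.602, 1.67 and 1.35 CPM at 1 h and 1.07, 0.829 and 0.792 CPM at 4 h. All 6 ischemic arteries were below the normal ones, as for Vegfc, at 9 to 25 counts per library. The log2 difference of Figf was -1.05 at 1 h (adjusted p = 0.295) and -1.47 at 4 h (adjusted p = 0.246).

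Over all lists of pathway genes read here, DESeq2 called 11 at 1 h and 8 at 4 h, where it called 702 and 610 genes of the whole table. Genes known to respond to VEGF in cultured endothelium held the 1 pathway gene that edgeR called. Of 15 such genes, 0 were called at 1 h and 1 at 4 h, where 0.0904% of all genes were called. At an unadjusted p under 0.05, 6 had higher and 1 had lower values at 1 h, against 7.98% and 8.67% of all genes. At 4 h there were 4 with higher and 2 with lower values, against 5.07% and 7.35%. Their median log2 difference was 0.76 at 1 h and 0.51 at 4 h, beside -0.0076 and 0.027 over all genes tested. Many of these genes, Nr4a1 and Egr3 among them, respond to a wide range of stimuli in many cell types, so the list is not particular to VEGF.

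Nr4a1, an immediate early nuclear receptor, had 111.9, 76.3 and 95.1 CPM in the normal arteries, 649.6, 905.4 and 395.5 CPM at 1 h and 1765, 1623 and 775.9 CPM at 4 h. The normal arteries were far below all ischemic ones. It rose at 4 h, with a log2 difference of 3.88 (SE 0.46, adjusted p = 0.0316). The difference at 1 h was 2.78 (SE 0.43, adjusted p = 0.117). The call at 4 h was lost in 7 of the 9 fits that left out 1 library, where the difference stayed between 3.64 and 4.17 and the adjusted p reached 0.193. Adamts1, a matrix protease that can bind VEGF-A, had means of 129.0 ± 68.3 CPM, 1014 ± 612.4 CPM and 1130 ± 271.8 CPM in normal, 1 h and 4 h arteries (SD, n = 3 each). Its log2 difference was 2.98 at 1 h (adjusted p = 0.139) and 3.13 at 4 h (adjusted p = 0.0789). Cited2, which competes with HIF factors for a coactivator, had lower values, with a log2 difference of -0.84 at 1 h (adjusted p = 0.275) and -1.60 at 4 h (adjusted p = 0.1).

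Egr3 and the endothelial adhesion gene Sele had higher values at 1 h than at 4 h. Egr3 had means of 1.67 ± 0.251, 8.40 ± 4.48 and 2.38 ± 1.13 CPM, and Sele had 0.567 ± 0.119, 10.1 ± 0.47 and 1.81 ± 2.24 CPM, in normal, 1 h and 4 h arteries (SD, n = 3 each). The log2 difference of 4 h from 1 h was -1.81 for Egr3 and -2.46 for Sele, each with groups that did not overlap and an adjusted p of 0.856. Leaving out replicate 3 at 4 h moved the difference of Sele to -4.21, and leaving out replicate 1 at 4 h moved it to -1.95. The log2 difference of Rcan1, an inhibitor of calcineurin, was 0.82 at 1 h and 1.10 at 4 h, that of the tip cell ligand Dll4 was -0.29 and -0.93, and that of the endothelial proteoglycan gene Esm1 was -0.22 and 0.24, with adjusted p-values from 0.271 to 0.853.

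**Figure D5:**
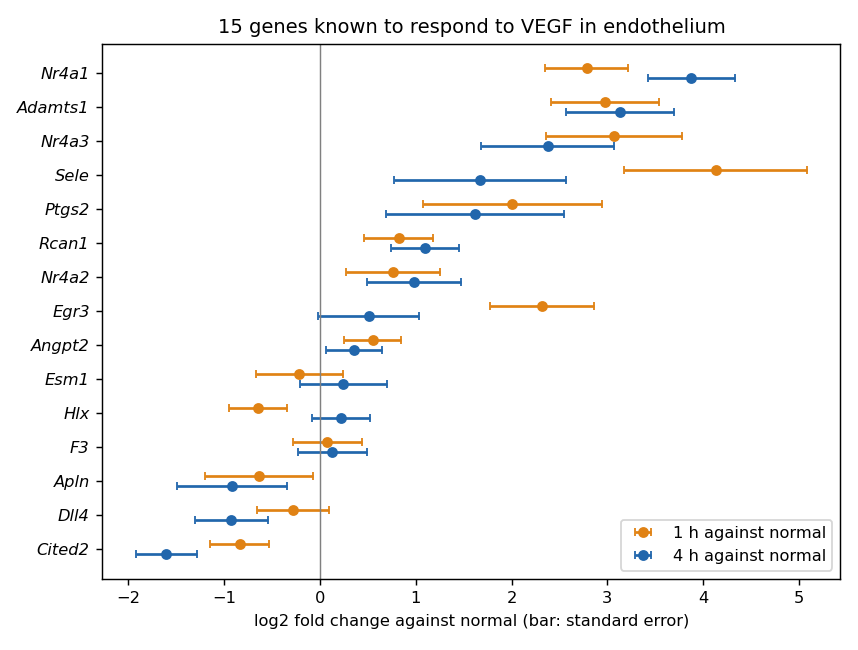
Log2 fold change against normal (horizontal axis) of 15 genes known to respond to VEGF in endothelium (vertical axis, ordered by the value at 4 h) at 1 h and 4 h, with standard errors as bars. Nr4a1 and Adamts1 lie to the right of 2.7 at both times, Sele and Egr3 are farther right at 1 h than at 4 h, and Dll4, Apln and Cited2 lie below 0.

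Among 34 tested signal transducers downstream of the receptors, 0 were called at either time. At an unadjusted p under 0.05, 3 had higher and 3 lower values at 1 h, and 3 had higher and 2 lower values at 4 h, shares close to the 16.7% and 12.4% of all genes. Sphk1, the kinase that makes sphingosine 1-phosphate, had 2.52, 5.04 and 0.96 CPM in the normal arteries, 17.5, 132.2 and 59.7 CPM at 1 h and 28.5, 18.4 and 27.7 CPM at 4 h. All ischemic arteries were above the normal ones, and replicate 2 at 1 h was far above the rest. Its log2 difference was 4.62 at 1 h (SE 0.84, adjusted p = 0.136) and 3.13 at 4 h (SE 0.79, adjusted p = 0.174), and without replicate 2 at 1 h the former was 3.76. Of the MAP kinase genes, Map2k1 had a log2 difference of 0.94 at 1 h (adjusted p = 0.272), Mapkapk2 of 0.72 at 4 h (adjusted p = 0.35) and Mapk14, which encodes p38 alpha, of -0.52 at 1 h (adjusted p = 0.26) and -0.44 at 4 h (adjusted p = 0.36). Nck1, an adaptor that links Kdr to actin, had -0.60 at 1 h (adjusted p = 0.284) and -0.78 at 4 h (adjusted p = 0.233).

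Of 19 partners and brakes of the receptors, 0 were called. At an unadjusted p under 0.05 there were 2 with higher values at 1 h, and 1 with higher and 1 with lower values at 4 h, shares below the 16.7% and 12.4% of all genes. Ptpn1, the phosphatase PTP1B that acts on Kdr, had a log2 difference of 0.98 at 1 h (adjusted p = 0.238). Adamts3, the protease that matures VEGF-C, had means of 1.83 ± 0.783 CPM in normal arteries and 7.93 ± 4.25 CPM at 1 h (SD, n = 3 each), a log2 difference of 2.11 (adjusted p = 0.258), with values opposite in direction to those of Vegfc itself. Dab2, an endocytic adaptor, had a log2 difference of -1.19 at 4 h (adjusted p = 0.334). Of 11 class 3 semaphorin and plexin genes, from families of which many but not all members share the neuropilins with VEGF, 0 were called. The unadjusted p was under 0.05 for 2 at 1 h and 1 at 4 h, against the same shares of all genes. Plxna2 had a log2 difference of 1.23 at 1 h (adjusted p = 0.226), and Plxnd1, the receptor of SEMA3E, had 283.5, 253.3 and 286.9 CPM in the normal arteries and 193.3, 178.4 and 115.2 CPM at 1 h, a log2 difference of -0.76 (adjusted p = 0.248). At 4 h Plxnd1 overlapped the normal values, with 298.2, 246.4 and 196.5 CPM.

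Genes that control Vegfa and genes that share its control by oxygen were read beside it. Of 16 regulators of Vegfa transcription and mRNA, 0 were called, and at each time 1 with higher and 1 with lower values had an unadjusted p under 0.05, against 16.7% of all genes at 1 h and 12.4% at 4 h. The oxygen-sensing subunit genes Hif1a and Epas1 overlapped between all groups, with log2 differences of 0.28 and 0.40 at 1 h and 0.076 and 0.14 at 4 h, although these factors are regulated mainly as proteins. Zfp36, which encodes tristetraprolin, a protein that speeds the decay of Vegfa mRNA, had means of 176.0 ± 101.7, 761.2 ± 294.2 and 648.6 ± 159.1 CPM in normal, 1 h and 4 h arteries (SD, n = 3 each). Its log2 difference was 2.11 at 1 h (adjusted p = 0.188) and 1.88 at 4 h (adjusted p = 0.177). The related Zfp36l1 had -0.79 at 4 h (adjusted p = 0.344), and Elavl1, whose product HuR stabilises the mRNA, had -0.69 at 1 h (adjusted p = 0.293).

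Of 16 hypoxia targets other than Vegfa, 0 were called at either time, and the unadjusted p was under 0.05 for 5 with higher and 1 with lower values at 1 h, and for 3 and 2 at 4 h, against 16.7% and 12.4% of all genes. Their median log2 difference was 0.44 at 1 h and 0.32 at 4 h, beside -0.0076 and 0.027 over all genes tested. Bnip3, a mitophagy receptor, had a log2 difference of 1.60 at 1 h (adjusted p = 0.187) and 0.98 at 4 h (adjusted p = 0.316). Adm, the gene of the vasodilator adrenomedullin, had 2.10 at 1 h (adjusted p = 0.188), and Ddit4, an inhibitor of mTOR signalling, had 2.29 at 4 h (adjusted p = 0.0981). Ankrd37 had -1.999 at 1 h (adjusted p = 0.232) and Pdk1, which holds pyruvate out of mitochondria, -0.37 at 4 h (adjusted p = 0.383). Vegfa, at 1.25 on the log2 scale at 4 h, lay between Bnip3 and Ddit4 in size.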

How the data were processed

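RNA of the SMA of 9 rats was sequenced on an Illumina HiSeq X instrument, 3 libraries per group, from Trizol extracts. The deposited table holds raw read counts per gene symbol for all 9 libraries. HISAT2 is named in the submitters' processing notes. The counting program, genome build, annotation and strand setting are not given in the sources used here, so antisense or overlapping genes cannot be told apart. The study's methods describe Agilent microarrays for these samples, but the table holds whole-number counts and was analysed as such. Total counts per library were 13114273 to 15504240, and 13156 of 37203 symbols had no count.

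Counts were tested in R 4.3.3 with edgeR 4.0.16 (filterByExpr, TMM scaling with factors of 0.814 to 1.22, glmQLFit and glmQLFTest on all 9 libraries with group as the only term), with Benjamini-Hochberg adjustment over 15482 genes. The thresholds were an adjusted p of 0.05 and a fold of 1.5. Intervals are 95% intervals from the moderated degrees of freedom. Log2 CPM used a prior count of 2. The ratio of receptor counts was tested by exact permutation. The scripts were tested on simulated counts. Alternatives were other scalings, filters and sample sets, DESeq2 1.42.0, a replicate block, marker means as covariates and leaving out each library. P-values of the edgeR fit rest on a spread between rats that is pooled over the 3 groups and moderated across genes. No pair of libraries was a copy.

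The 8 genes and the gene lists were chosen with earlier results of these data known, so no test here is independent support. Named genes were the 8, genes of the pathway lists that were called or, where a list had none, up to 2 per direction with the smallest unadjusted p under 0.05, groups that do not overlap and a mean of at least 1 CPM, and the 3 nearest profiles. Flt4, Hif1a, Epas1, Rcan1, Dll4, Esm1, Erg, Egfl7, Tie1, Cldn5, Angpt2 and, outside the 4 h comparison with 1 h, Egr3 and Sele were named outside this rule, after their values were seen.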

Additional observations from a re-analysis of the deposited data

How the results depend on the processing

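Of the 8 VEGF genes, 0 were called in every comparison under every alternative except DESeq2, which called 1 at 4 h and 1 over the 3 groups together, Vegfa in both. The differences of Vegfa and Vegfc kept their direction at 1 h and 4 h under all alternatives run. Over the whole table DESeq2 called 702 genes at 1 h, 610 at 4 h and 669 over 3 groups, against 9, 14 and 6. Restricting the fit to the groups compared gave 4 and 4, a nerve marker covariate 17, 107 and 31, a smooth muscle covariate, chosen after seeing the data, 31, 82 and 32, an endothelial covariate 1 over 3 groups and no filter 11. For the pathway lists, with 0 genes called at 1 h, DESeq2 gave 11, only the groups compared 1, the nerve covariate 1 and the smooth muscle covariate 2. With 1 called at 4 h they gave 8, 0, 2 and 2, the endothelial covariate 0, and leaving out each library 0 to 2.

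Replicate numbers are shared between groups. Of 9 pairs of libraries with the same number, 4 had deviations that correlated at over 0.1 (range -0.65 to 0.66), so the numbers were not taken to pair the rats. With the replicate block 7 genes of the whole table were called at 1 h, 7 at 4 h and 0 over 3 groups, 0 of the pathway genes at 4 h, and 0 of the 8 VEGF genes. Flt1 at 4 h was then 0.00811.

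Differences of several members changed sign, and the cause was not tested. Pgf at 1 h was 0.019 with relative log expression factors and with DESeq2, 0.00055 with no filter, 0.0068 with only the groups compared, and 0.65, 0.11 and 0.0024 with the nerve, endothelial and smooth muscle covariates. With the nerve covariate Kdr was -0.29 and Nrp2 -0.57 at 1 h, and Nrp1 0.37 and Nrp2 0.31 at 4 h against 1 h. With the endothelial covariate Nrp1 was 0.52 at 1 h, and at 4 h Vegfb was -0.053, Flt1 0.51, Kdr 0.23 and Nrp2 0.49. With the smooth muscle covariate Nrp1 was 0.023 at 1 h, and Flt1 0.36 and Nrp2 0.37 at 4 h. Scaling by library size alone moved the median of all genes to -0.15 at 4 h and -0.24 at 4 h against 1 h, and gave Vegfb -0.042 at 4 h. Leaving out each library gave ranges at 1 h of -0.31 to 0.023 for Vegfb, -0.38 to 0.37 for Pgf, -0.17 to 0.94 for Kdr, -0.49 to 0.79 for Nrp1 and -0.074 to 1.57 for Nrp2, and at 4 h of -0.39 to 0.72 for Flt1, -0.77 to 0.34 for Kdr, -0.98 to 0.33 for Nrp1 and -1.06 to 0.97 for Nrp2. The log2 ratio of Flt1 to Kdr differed from normal by 0.31 to 0.73 at 1 h and 0.084 to 0.54 at 4 h.

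The ischemic groups hold 3 rats each, and the intervals of the receptor and neuropilin genes are wide, so only large changes were detectable. Low genes (Vegfc, Pgf, Figf) also carry counting error.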

Other observations

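Other growth factor systems of the vessel wall were read in the same way. Of 5 angiopoietin and Tie genes 0 were called at either time, against 0.0581% of all genes at 1 h and 0.0904% at 4 h. The receptor gene Tie1 had a log2 difference from normal of -0.78 at 1 h (edgeR adjusted p = 0.294) and -0.82 at 4 h (edgeR adjusted p = 0.359). Angpt2, the gene of a ligand of the related receptor Tek, had 0.55 and 0.35. Of 6 PDGF ligand and receptor genes, which recruit mural cells, 0 were called at either time, against the same shares of all genes. Pdgfc had a mean of 14.9 ± 6.06 CPM in normal arteries, 5.10 ± 3.66 CPM at 1 h and 4.73 ± 1.23 CPM at 4 h (SD, n = 3 each). Its log2 difference was -1.65 at 4 h (edgeR adjusted p = 0.279), with no overlap with normal at 4 h. Groups that did not overlap, with lower values at 4 h, were found for 2 of the 6 genes, against 10.8% of all genes.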
